A study of Mus musculus with 4 samples.

Results

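Club cells, the secretory cells of the mouse airway whose best-known product is secretoglobin 1a1 (Scgb1a1), were followed here through 4 single-cell RNA libraries of the trachea. A club cell was taken as a barcode with at least 500 genes, at most 15% mitochondrial counts and at least 5000 unique molecular identifiers (UMIs, each standing for 1 captured transcript). It also had at least 5% of its UMIs in Scgb1a1, Scgb3a1, Scgb3a2 and Bpifa1 together, at least 1 UMI of Epcam, none of the basal cell factor Trp63, at most 2 of the ciliated cell genes Tmem212 and Ccdc153, and under 5 per 10000 of the hillock keratins Krt13 and Krt4. Its Scgb1a1 count was at least as high as its Scgb3a1 count. That left 4091 club cells among 31167 cells kept. The cells that met every other condition but had more Scgb3a1 than Scgb1a1, 1128 in all, are called mucous-type cells below.

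Club cells line the airway surface, secrete small anti-inflammatory and antimicrobial proteins into the airway fluid, and carry cytochrome P450 enzymes that act on inhaled chemicals. They can divide, and they arise in the trachea from basal cells, the stem cells at the base of the epithelium that express Trp63. Secretoglobins are small secreted dimeric proteins. Scgb1a1 is the classical club cell protein, whereas Scgb3a1 is associated with mucus-producing cells of the larger airways.

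The study set the deletion of Ctnnb1, which encodes the adhesion and Wnt signalling protein β-catenin, against its control in the dorsal and the ventral trachea of the mouse. Knockout mice were Ctnnb1-fl/fl and control mice Ctnnb1-fl/+. Both carried the P63-CreER driver, the Ki67-lsl-Dre allele and a Rosa26-rsr-GFP reporter, so that every mouse had at least 1 floxed allele and was given tamoxifen. The tracheae were harvested on day 10, digested with papain and loaded on a droplet platform that reads transcripts from their 5′ ends. Each genotype and region is 1 library, and the labels do not say how many mice stand behind a library, nor their age or sex. Cre acts in P63-expressing cells, so a club cell in a knockout library carries the deletion only if it descends from a basal cell that recombined. With 1 library in each group no test between genotypes or regions is possible. Such differences are given as ratios of CPM (a gene's share of all UMIs summed over the club cells of a library, scaled to 1e6 UMIs), with exact 95% intervals that cover counting error only.

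Club cells numbered 971 in the knockout dorsal, 2440 in the control dorsal, 253 in the knockout ventral and 427 in the control ventral library. Their summed UMIs were 56125915, 100334005, 15984555 and 21007757 in the same order of libraries, which is kept wherever 4 values follow. The median club cell held 51841, 39686, 56163 and 43524 UMIs and 5628, 5120, 6376 and 5724 genes. Of 39524 barcodes 176 occurred in more than 1 library, and the pair that shared most, control dorsal and control ventral, shared 57. Scrublet, a doublet caller, marked 13, 71, 6 and 4 club cells, which were kept. In the knockout dorsal, control dorsal and control ventral libraries the caller set its own threshold, and in the knockout ventral library a fixed rate was used.

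The label was checked against the markers. Members were selected on their measured UMIs of Scgb1a1, Scgb3a1, Scgb3a2 and Bpifa1, so the levels of these genes describe the choice. Scgb1a1 stood at 197030, 165600, 138300 and 126070 CPM, and Bpifa1, a secreted lipid-binding defence protein, at 184530, 164830, 194840 and 178980 CPM. Each of these 2 genes thus took more than 10% of the UMIs of club cells in every library. Scgb3a2, a secretoglobin shared with the lower airways, had 19077, 23471, 15753 and 19724 CPM, and Scgb3a1 had 18339, 18334, 48018 and 37847 CPM. Scgb3a1 was the gene of the 4 with the widest gap between regions, its ventral levels lying above both dorsal ones.

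The rule did not use Cyp2f2 and Ltf. Cyp2f2, a P450 enzyme known as a club cell marker in the lung, had 9257, 11630, 11766 and 11122 CPM in club cells. Basal cells of the same libraries had 8482, 9528, 12455 and 9562 CPM, so as a share of all UMIs Cyp2f2 did not set tracheal club cells apart. The 4 secreted genes took a median of 40.4, 35.8, 38.4 and 34.8% of UMIs in club cells. In basal cells they took under 5% by the definition of that class. This lowers the club CPM of every other gene, so CPM cannot decide whether Cyp2f2 differs outside the secreted genes, which was not tested. Ltf, the iron-binding antimicrobial protein lactoferrin, had 8714, 9610, 3908 and 3091 CPM in club cells and at most 122 CPM in basal cells. Mucous-type cells had 8219, 5663, 21729 and 13361 CPM of Ltf, more than club cells in the ventral libraries. Of the markers of other cell kinds, Krt5, Ptprc and Col1a1 left few counts, but others did not. The basal keratin Krt5 was at 10.8, 10.4, 14.8 and 21.2 CPM, where basal cells had at least 1252 CPM, the leukocyte gene Ptprc was at 0.857 CPM or below and the fibroblast collagen Col1a1 was at 6.77 CPM or below, where fibroblasts had at least 443 CPM. With each club cell drawn down to the minimum UMIs of the selection, Krt15, another basal keratin, had means of 5.57, 6.60, 4.45 and 5.80 UMIs. Krt5 had at most 0.171 on that scale. The endothelial and leukocyte gene Pecam1 and Lyz2, whose CPM are given below, also lay above Krt5, Ptprc and Col1a1 in every library. Whether their counts came from club cells or from other cells was not tested. By CPM, neither Cyp2f2 nor Ltf set club cells apart from every other class. On this scale Cyp2f2 was close to its level in basal cells, and ventral Ltf was higher in mucous-type cells. The name club cell rests on the selected secreted genes.

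**Figure D1:**
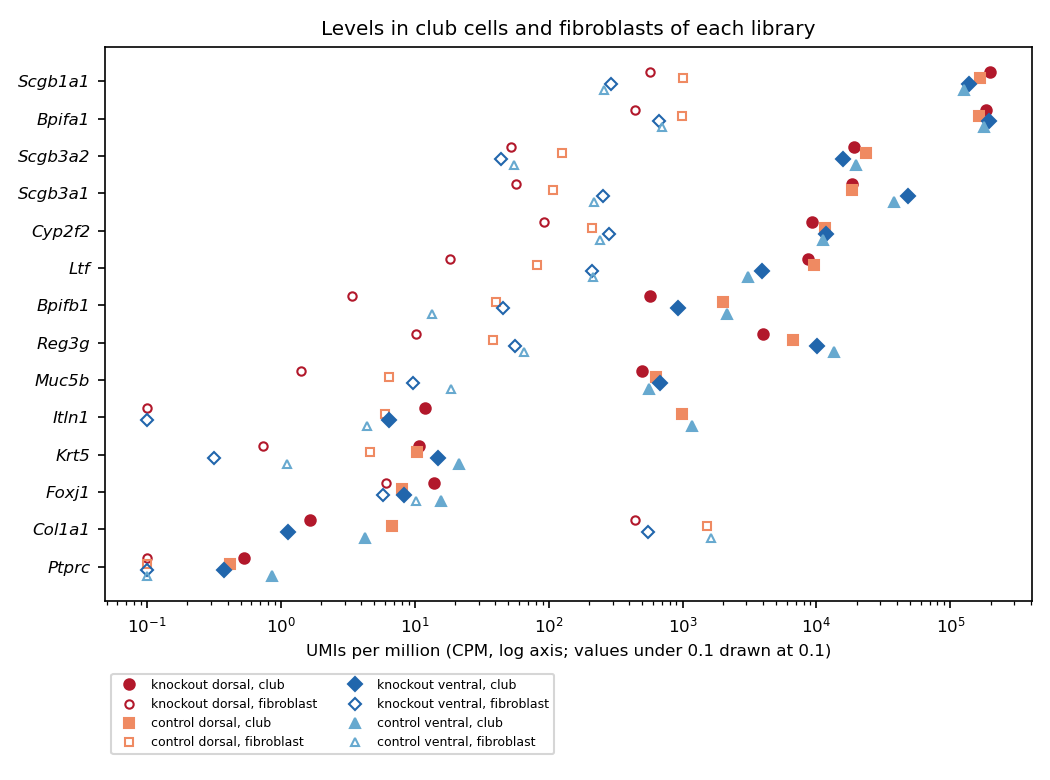
CPM (x axis, log scale, values under 0.1 drawn at 0.1) of secreted and marker genes (y axis) in club cells (filled symbols) and fibroblasts (open symbols) of each library. Scgb1a1 and Bpifa1 lie highest in club cells of every library, and Ltf separates dorsal club cells (8714 and 9610 CPM) from ventral ones (3908 and 3091 CPM).

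Among other secreted proteins, the protease inhibitor Wfdc2 had 8288, 10686, 6504 and 7373 CPM. The antibacterial lectin Reg3g had 3968, 6708, 10011 and 13537 CPM, higher in both ventral libraries, and lysozyme 2 (Lyz2) had 12458, 9762, 9232 and 4957 CPM. Surfactant protein A (Sftpa1), a lung collectin, had 290, 372, 1688 and 897 CPM, whereas surfactant protein D (Sftpd) had 633, 531, 444 and 351 CPM. The 2 collectins therefore had opposite regional orders. The carbonyl reductase Cbr2 had 13949, 16660, 15199 and 15077 CPM. As a share of all UMIs this was close to its level in basal cells.

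The sequences around the starts of secreted products can be set side by side for Bpifa1 and Scgb3a1, both genes of the selection. Bpifa1 levels overlapped between regions and Scgb3a1 levels did not, which describes the selected cells. No window was found for Scgb1a1. The sequences shown are the 300 bases around each transcription start in RefSeq on GRCm38.p6, a build other than that of the counts. They lie at chr2:154142630-154142929 on the plus strand and chr11:49663345-49663644 on the plus strand. Capitals mark matches, on either strand and not overlapping each other, to any of 6 motifs searched.
Bpifa1: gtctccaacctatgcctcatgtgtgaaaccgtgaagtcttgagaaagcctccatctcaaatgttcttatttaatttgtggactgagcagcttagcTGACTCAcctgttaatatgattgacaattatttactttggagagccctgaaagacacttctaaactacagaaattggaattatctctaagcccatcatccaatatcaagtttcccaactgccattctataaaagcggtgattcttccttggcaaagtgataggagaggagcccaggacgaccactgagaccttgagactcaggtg
Scgb3a1: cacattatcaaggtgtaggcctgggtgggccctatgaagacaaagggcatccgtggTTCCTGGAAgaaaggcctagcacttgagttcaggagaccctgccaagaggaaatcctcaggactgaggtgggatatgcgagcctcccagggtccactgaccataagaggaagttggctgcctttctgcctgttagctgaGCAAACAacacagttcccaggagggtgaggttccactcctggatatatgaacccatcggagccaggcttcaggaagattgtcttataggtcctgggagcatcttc
The motifs were the AP-1-type TGANTCA, the STAT-type TTCNNNGAA, a STAT6-type with 1 more base in its spacer, the FOX-type TGTTTNC, the C/EBP-type TTGCNNAA and the NKX2-1-type CACTCAAG. Bpifa1 held 1 AP-1-type match, a motif present in 7.81% of 32851 promoter windows of this length. Scgb3a1 held 1 STAT-type match (8.30% of windows) and 1 FOX-type match (20.5% of windows). The STAT6-type, C/EBP-type and NKX2-1-type letters, present in 6.95, 10.8 and 1.43% of windows, matched neither sequence. These are letter matches and show no binding.

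The balance of the 2 secretoglobins differed from region to region. The median club cell had a log2 ratio of Scgb1a1 to Scgb3a1, with 0.5 added to each count, of 5.61 and 4.80 in the knockout and control dorsal libraries, and of 1.54 and 1.60 in the knockout and control ventral libraries. The selection put the floor of this ratio at 0, so the values describe how far above it cells lay. The middle 80% of cells spanned 1.64 to 10.6, 1.58 to 9.93, 0.19 to 6.71 and 0.25 to 5.12. Cells in which Scgb1a1 was under 2 times Scgb3a1 numbered 55, 115, 81 and 131, and mucous-type cells as near on the other side numbered 10, 32, 73 and 90. A larger part of the ventral club cells thus lay beside the line that separates the classes. At the threshold on secreted genes, 7, 43, 7 and 9 members had 5 to 6% of UMIs in them, while 14, 48, 3 and 10 cells were left out at 4 to 5%. Median Cyp2f2 was 1.25, 1.29, 1.12 and 1.41% of UMIs just inside and 1.01, 1.33, 1.18 and 0.794% just outside. More cells met the conditions on secreted genes, Epcam and Scgb1a1 but were left out for another marker. With a Trp63 UMI there were 456, 584, 143 and 190, with hillock keratins 133, 829, 6 and 142, and with ciliated genes 57, 167, 10 and 22. A cell can be in more than 1 of these groups. In the shares below these cells count as epithelial but not as secretory.

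**Figure D2:**
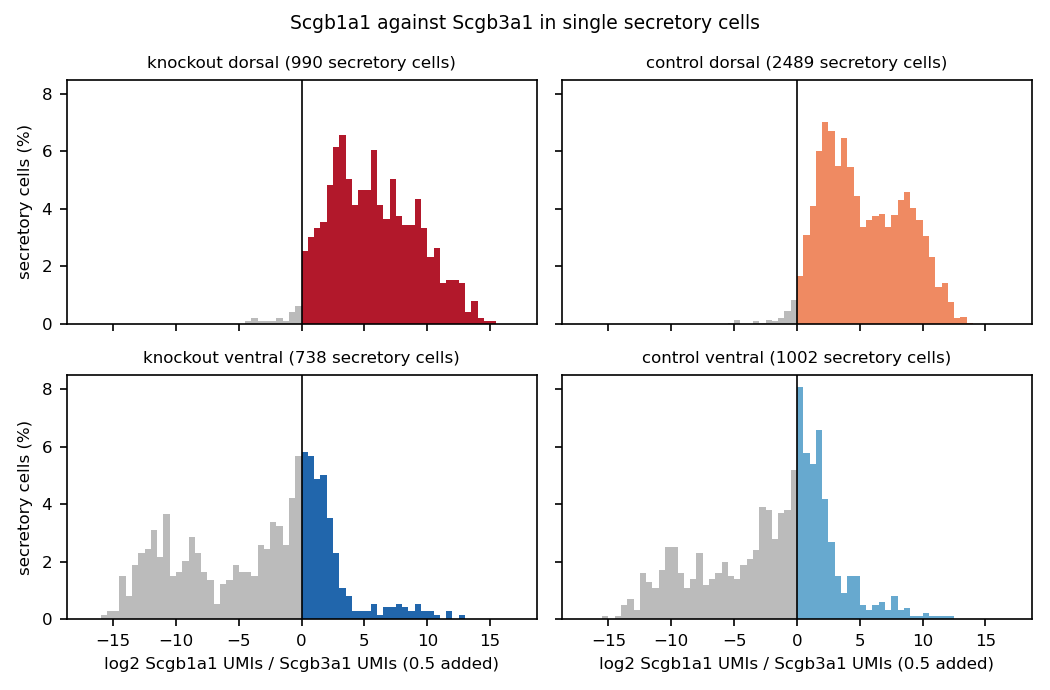
Distribution of the log2 ratio of Scgb1a1 to Scgb3a1 UMIs over secretory cells of each library (x axis, log2) as the percent of those cells (y axis); 0 on the x axis is the line between mucous-type and club cells. Dorsal cells lie almost wholly to the right of the line, with medians of club cells at 5.61 and 4.80, and ventral cells lie on both sides of it.

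Nearly all dorsal secretory cells were club cells. They made up 98.1% (exact 95% interval 97.0 to 98.8) of secretory cells in the knockout dorsal and 98.0% (97.4 to 98.5) in the control dorsal library. In the knockout ventral library the share was 34.3% (30.9 to 37.8), and in the control ventral library it was 42.6% (39.5 to 45.7). As a share of all epithelial cells, club cells were 29.7% (28.1 to 31.3) of 3269 and 27.2% (26.3 to 28.2) of 8955 in the knockout and control dorsal libraries, and 9.73% (8.62 to 10.9) of 2600 and 9.68% (8.82 to 10.6) of 4413 in the ventral ones. Epithelial here means every kept barcode with at least 1 Epcam UMI, so gland cells and Epcam-positive thyroid cells are included. Gland cells numbered 1, 0, 408 and 603, and thyroid cells 0, 0, 12 and 226. The gland class held only cells under 5% of UMIs in the secreted genes. Gland cells at or above that share could therefore count as secretory in the ventral libraries, and were not told apart from surface cells. The knockout and control intervals of the epithelial share overlapped in the ventral pair and barely in the dorsal pair, and those of the secretory share did not overlap in the ventral pair. The intervals treat cells as independent and leave out differences between mice and between dissociations.

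Club cells were not uniform. Scgb1a1 took a median of 17.5, 14.1, 10.2 and 8.83% of a cell's UMIs, but the lowest 10% of cells had at most 1.14, 1.09, 0.057 and 0.029%. Cells with less than 1% Scgb1a1 made up 9.47, 9.63, 22.1 and 25.8% of members, and in these other secreted genes met the rule. Bpifa1 exceeded Scgb1a1 in 51.7, 58.5, 75.5 and 65.1% of club cells, and Scgb3a2 exceeded it in 9.17, 8.48, 12.3 and 25.5%. Scgb3a1 was not detected in 8.55, 4.55, 2.77 and 1.64% of them at the full depths given above.

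The abundance of Scgb1a1 was compared with that of other products cell by cell. Spearman correlations of the Scgb1a1 share with the Scgb3a1 share were 0.53, 0.51, 0.72 and 0.80, and with Scgb3a2 0.44, 0.50, 0.69 and 0.63, and with Bpifa1 they were 0.04, 0.08, 0.07 and −0.17. The selection capped Scgb3a1 at Scgb1a1 and set a floor on the sum of these 4 genes, and all are shares of 1 total, so these values are shaped by the rule. Other genes were read among 2500 UMIs drawn per cell outside the 4 secreted genes, so that Scgb1a1 could not take from their total. On that scale Bpifb1, a relative of Bpifa1, gave 0.38, 0.47, 0.61 and 0.76, Reg3g gave 0.36, 0.32, 0.59 and 0.64, Wfdc2 gave 0.36, 0.33, 0.52 and 0.54, and the gel-forming mucin Muc5b gave 0.19, 0.30, 0.49 and 0.44. Keratin 15 (Krt15), a gene of basal and early luminal cells, ran the other way at −0.14, −0.25, −0.38 and −0.56. Cyp2f2 gave 0.12, 0.13, 0.24 and −0.04, and among 5000 UMIs drawn from all genes, where Scgb1a1 takes from the total, it gave −0.39, −0.38, −0.34 and −0.52. These correlations are over cells of 1 library that share its free RNA and the selection, and are given without a test.

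Club cells were next set against mucous-type cells of the same library. The surfactant gene Sftpb and 16 of 53 genes of xenobiotic metabolism were higher in club cells, and 12 of 28 mucus and goblet genes and 11 of 15 gland genes were lower. The comparison used summed counts of both classes in all 4 libraries, without the 10 genes of the selection, in edgeR's quasi-likelihood test with library as a block. Of 14479 genes tested, 346 (2.39%) were higher and 306 (2.11%) lower in club cells at an adjusted p under 0.05. Without the block the counts were 2 and 3, and without the control ventral library they were 119 and 61. The classes were split on Scgb1a1 and Scgb3a1 within the same cells, so a gene that follows either one differs by the split itself, and only 19 and 49 dorsal mucous-type cells, in the knockout and control libraries, entered the sums. Dorsal mucous-type cells also lay near the dividing line, with a median log2 ratio of Scgb1a1 to Scgb3a1 of −0.72 and −0.68. In the ventral libraries it was −6.21 and −4.18. The fit gives 1 common estimate for these unlike contrasts. Ventral mucous-type cells may also include gland cells, which were not told apart from surface cells.

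Higher in club cells were Upk3bl, a uroplakin-like membrane protein, at 111, 111, 18.4 and 27.2 CPM in club cells, against 4.61, 7.21, 0.409 and 1.58 CPM in mucous-type cells (log2 fold change 4.46, SE 0.18, edgeR adjusted p = 1.3e-05). Hillock cells had more of it, at 1817, 1185, 607 and 370 CPM. Sftpb, the surfactant protein needed for film formation in the alveoli, had 83.8, 73.5, 40.4 and 23.2 CPM in club cells, against 7.37, 3.88, 4.42 and 0.949 CPM in mucous-type cells (log2 3.71, SE 0.21, edgeR adjusted p = 4.3e-05). Here every club value exceeded every mucous-type value. In the knockout and control ventral libraries, however, 5 club cells held 45.2 and 44.6% of the Sftpb UMIs. Haptoglobin (Hp), the haemoglobin scavenger, had 352, 254, 258 and 167 CPM in club cells and 107, 57.2, 40.1 and 14.95 CPM in mucous-type cells (log2 2.60, SE 0.22, edgeR adjusted p = 0.00038). Areg, an epidermal growth factor receptor ligand, had 94.6, 181, 71.8 and 47.4 CPM in club cells and 42.4, 28.3, 5.95 and 10.997 CPM in mucous-type cells (log2 2.52, SE 0.28, edgeR adjusted p = 0.0016). The neuregulin gene Nrg1 (ENSMUSG00000062991, whose symbol the files list under more than 1 identifier) was higher by 1.86 on the log2 scale, and the retinol carrier Rbp4 by 1.89. The remaining genes of the leading 12 were B4galt5, Ms4a8a, S100g, AW112010, Krtap17-1 and Ahnak2, with log2 fold changes of 1.96 to 2.68. In the knockout ventral library 5 of 253 club cells held 85.7% of the S100g UMIs, 62.9% of those of AW112010, 53.2% of those of Krtap17-1 and 54.4% of those of Upk3bl, and in the control ventral library 5 cells held 71.2% of S100g. For Nrg1 5 cells held 42.3 and 46.2%, and for Areg 43.6 and 24.7%, in the knockout and control ventral libraries.

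Lower in club cells were the demilune cell and parotid proteins. Dcpp3 had 0, 0, 30.0 and 57.7 CPM in club cells, against 0, 0, 16394 and 13419 CPM in mucous-type cells (log2 −8.49, SE 0.38, edgeR adjusted p = 5.9e-05). After thinning to 5000 UMIs, 26.5 and 26.9% of knockout and control ventral club cells had a Dcpp3 UMI, against 35.3 and 35.8% of mucous-type cells, and 53.0 and 54.02% of fibroblasts did. The club shares lie below those in fibroblasts, so a Dcpp3 UMI in a club cell cannot be told from background. The mucous-type shares lie below them too, although the summed level of mucous-type cells is far above that of club cells. How that sum was spread over mucous-type cells was not tested. Dcpp1, Dcpp2, Wfdc18 and 2310057J18Rik were likewise at or near 0 in both dorsal classes, so their direction rests on the ventral libraries, and reads of the near-identical Dcpp copies may be split among them. The trefoil peptide Tff1 had 0.0178, 0.558, 0.375 and 1.14 CPM in club cells and 0, 0.555, 51.8 and 209 CPM in mucous-type cells, again a ventral difference. Gp2, a bacterium-binding membrane glycoprotein, had 3.67, 10.6, 9.70 and 26.0 CPM in club cells and 6.45, 29.4, 1293 and 1431 CPM in mucous-type cells (log2 −4.47, SE 1.04, edgeR adjusted p = 0.044). Galnt6, which starts O-linked glycosylation, had 0.445, 1.14, 0.5005 and 1.76 CPM in club cells, against 7.37, 5.55, 21.4 and 35.7 CPM in mucous-type cells. It was lower in both regions (log2 −4.03, SE 0.37, edgeR adjusted p = 0.00071). Its dorsal mucous-type values rest on few UMIs, from sums of 1085786 and 1801858 UMIs over 19 and 49 cells in the knockout and control libraries. Bpifb2, Pf4, Wfdc12 and Fkbp11 completed the 12, at −5.61 to −3.17.

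**Figure D3:**
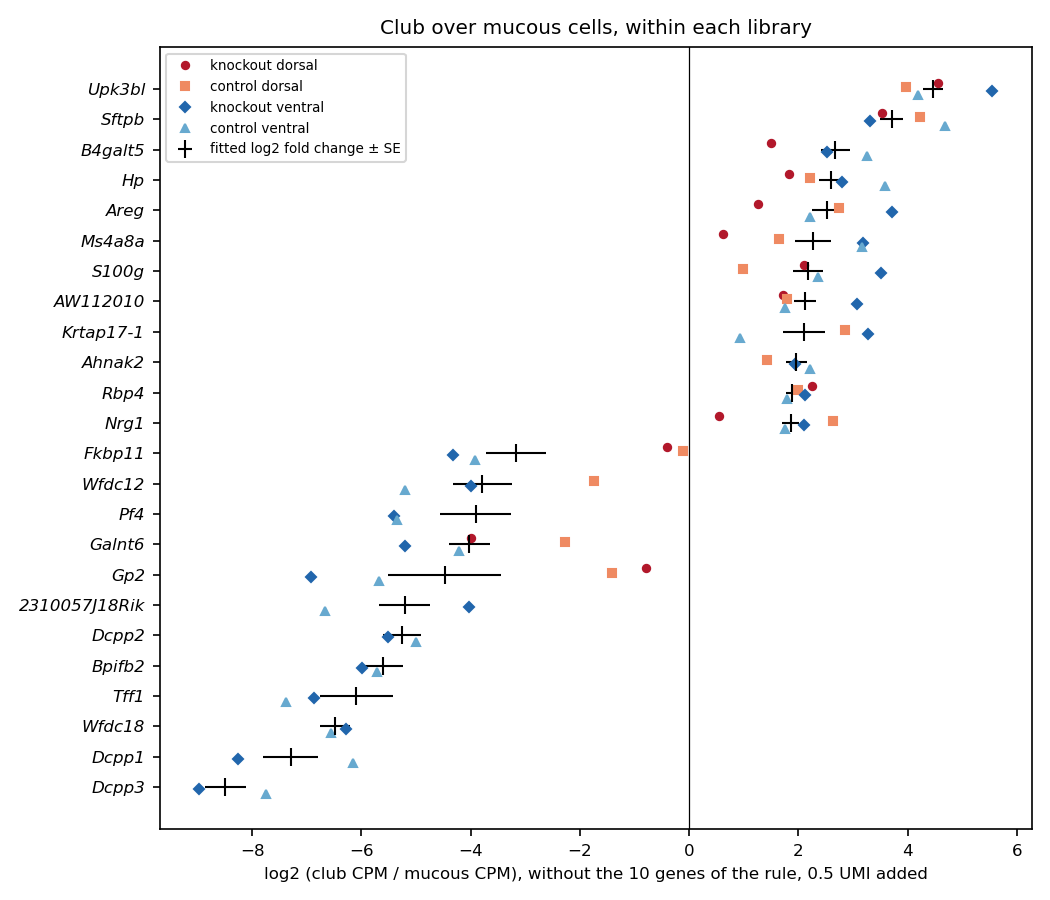
Log2 ratio of club over mucous-type CPM (x axis) for the named genes (y axis), with the edgeR estimate and its SE as a black cross and 1 point per library where mucous-type cells held at least 3 UMIs. Genes such as Dcpp3 have no dorsal points, since both dorsal classes were at 0, whereas Sftpb and Hp lie to the right of 0 in all 4 libraries.

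Gene groups were counted against those shares of all genes, whose median log2 fold change was 0.01. Of 53 xenobiotic metabolism genes tested 16 were higher and 1 lower in club cells, with a list median of 0.30. Among them were alcohol dehydrogenase 7 (Adh7, log2 0.85, edgeR adjusted p = 0.00071) and the microsomal glutathione transferase Mgst1 (0.77), and the sulfotransferase Sult1c1 was lower (−2.03). Of 28 mucus and goblet genes 12 were lower and 0 higher, with a median of −0.67. Muc5b had 499, 630, 674 and 566 CPM in club cells, against 1010, 1096, 1321 and 1580 CPM in mucous-type cells (log2 −1.03, SE 0.13, edgeR adjusted p = 0.0027), and the goblet factor Spdef was lower by −1.52 (edgeR adjusted p = 0.0015). Of 15 gland genes 11 were lower, with a median of −3.32. Of 38 secretory-pathway and endoplasmic reticulum genes 4 were lower and 0 higher, with a median of −0.33.

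Hillock and squamous genes gave 6 higher and 0 lower of 14 (median 0.55), and basal identity genes 6 and 0 of 27 (median 0.41). Krt15 had a log2 fold change of 0.88 (edgeR adjusted p = 0.002) and Krt5 of 1.32 (0.0047), although Krt5 in club cells stayed at or below 21.2 CPM. Of 41 junction genes 4 were higher and 0 lower. The epithelial sodium channel subunits Scnn1b and Scnn1g were higher by 4.56 and 4.44 (edgeR adjusted p = 0.00093 and 0.0053), yet at low levels of at most 7.92 CPM in club cells. Host defence genes ran both ways, with 5 higher and 7 lower of 28. The test did not separate the classes for Cyp2f2 (log2 0.19, adjusted p = 0.48), Ltf (−0.90, adjusted p = 0.44) or Itln1 (−0.97, adjusted p = 0.054).

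Knockout club cells were then set against control club cells, first in the targeted gene. Ctnnb1 had 154 and 146 CPM in knockout dorsal and ventral club cells, against 175 and 183 CPM in control dorsal and ventral club cells, which gave ratios of 0.881 (95% interval 0.858 to 0.904) and 0.799 (0.759 to 0.841). In basal cells, where Cre acts, it had 200 and 237 CPM in the knockouts, against 283 and 288 CPM in the controls. Fibroblasts had 92.4 and 129 CPM in the knockout dorsal and ventral libraries, against 125 and 153 CPM in the controls. Counts come from transcript 5′ ends and the floxed exons are not given in the labels, so the level does not check the deletion. Genes count as past the fold where the ratio was at least 1.5 or at most its inverse and the gene had 20 CPM and 50 UMIs in 1 library of the pair. In the dorsal pair 108 of 4391 genes were past it upwards (2.46%) and 592 downwards (13.5%). In the ventral pair there were 43 of 4452 upwards (0.966%) and 86 downwards (1.93%). Scaled without the 4 secreted genes, the splits were 200 upwards and 527 downwards in the dorsal pair, and 90 and 104 in the ventral pair, which with TMM scaling gave 54 and 61. The median log2 ratio of all genes was −0.18 in the dorsal and −0.08 in the ventral pair.

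The gene furthest from equality was intelectin 1 (Itln1), a secreted lectin that binds microbial sugars. Knockout club cells had 11.9 CPM dorsally and 6.38 CPM ventrally, against 995 CPM in control dorsal and 1179 CPM in control ventral club cells. The ratios were 0.0120 (95% interval 0.0111 to 0.0129) and 0.00541 (0.00441 to 0.00657). After thinning every cell to 5000 UMIs, 4.33% of knockout dorsal and 1.58% of knockout ventral club cells had an Itln1 UMI, against 49.5% of control dorsal and 62.3% of control ventral ones. Without thinning these shares were 18.9 and 21.3% in the knockouts, against 68.0 and 77.5% in the controls. In fibroblasts, which should lack the gene, the thinned share was 0% in both knockout libraries, against 3.66 and 2.68% in the control dorsal and ventral libraries, so the control club shares lay far above the background. Median depth was 10856, 9185, 10068 and 11744 UMIs in fibroblasts. Other epithelial classes showed the same order: mucous-type cells had 51.6 and 11.7 CPM in the knockouts, against 2486 and 1237 CPM in the controls, and ciliated cells had 80.4 and 76.5 CPM, against 196 and 169 CPM. Basal cells were at 0 in both knockouts, against 3.47 and 3.004 CPM in the controls. Whether the mice behind the libraries differ at this locus for other reasons than Ctnnb1 cannot be told apart, since each genotype and region is 1 library. The RefSeq window around the Itln1 start, at chr1:171535245-171535544 on the minus strand of GRCm38.p6, is shown because no other gene moved as far. It held no match to any of the 6 motifs above.
Itln1: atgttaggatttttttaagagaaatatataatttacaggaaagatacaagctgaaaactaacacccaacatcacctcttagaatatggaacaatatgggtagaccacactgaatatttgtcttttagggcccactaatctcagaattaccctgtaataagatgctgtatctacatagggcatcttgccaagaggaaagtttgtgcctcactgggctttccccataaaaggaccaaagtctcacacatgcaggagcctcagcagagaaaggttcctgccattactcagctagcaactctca

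Other genes were lower in knockout club cells of both regions. Bpifb1, a secreted antimicrobial protein, had 574 and 931 CPM in knockout dorsal and ventral cells, against 2010 and 2147 CPM in the controls (ratios 0.286 and 0.434). The LIM-domain protein Fhl2 had 14.4 and 26.5 CPM, against 54.3 and 61.9 CPM (0.266 and 0.428, the ventral ratio being 0.723 after thinning to 5000 UMIs). Slc6a14, an amino acid transporter, had 12.9 and 31.2 CPM, against 42.2 and 61.7 CPM (0.305 and 0.505). Plat, the tissue plasminogen activator, had 10.4 and 29.5 CPM, against 21.9 and 63.5 CPM (0.473 and 0.465). In these 4 genes both knockout libraries lay below both controls, except that knockout ventral Plat exceeded control dorsal Plat. Rtp4, an interferon-induced protein, gave ratios of 0.453 and 0.410, and the secreted glycoprotein Lgals3bp gave 0.434 and 0.509. The remaining genes of the rule were also lower in knockout fibroblasts. The clock repressor Nr1d1 gave ratios of 0.230 and 0.544 in club cells and 0.161 and 0.298 in fibroblasts, Lsmem1 gave 0.380 and 0.456 in club cells and 0.225 and 0.492 in fibroblasts, and Basp1 gave 0.590 and 0.573 in club cells and 0.564 and 0.581 in fibroblasts.

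Higher in knockout club cells was Cxcl5, a neutrophil-attracting chemokine, at 87.7 and 127 CPM in knockout dorsal and ventral cells, against 19.7 and 66.0 CPM in the controls. Its ratios were 4.45 (95% interval 4.22 to 4.69) and 1.92 (1.79 to 2.06). C2cd4b had 241 and 180 CPM, against 57.2 and 109 CPM (ratios 4.21 and 1.65), and the ubiquitin ligase Rnf186 had 90.3 and 24.02 CPM, against 28.4 and 12.9 CPM (3.19 and 1.86). Ccnb1ip1, a ubiquitin ligase known from meiotic crossing-over, had 56.7 and 28.2 CPM, against 8.75 and 11.6 CPM (6.48 and 2.42). In the knockout ventral library 5 cells held 55.1% of its UMIs, and in the control ventral library 5 cells held 33.2%. Knockout dorsal fibroblasts were also above control ones in this gene, with a ratio of 4.13. The kinase Camk2b gave ratios of 2.04 and 1.71, the heparan sulfate sulfatase Sulf2 1.82 and 1.94, and the chromatin remodeller Chd9 1.70 and 1.56. The sulfotransferase Sult1a1 was 1.89 and 2.02 times as high in club cells and 2.14 and 1.60 times as high in fibroblasts. The immediate early genes Ier2 and Egr1, which respond to tissue handling, gave 1.73 and 1.47, and 1.73 and 1.45. Of all handling and immediate early genes 5 were higher and 6 lower of 27 in the dorsal pair, and 1 was higher and 1 lower of 27 in the ventral pair, with medians of −0.13 and −0.12. Among the lower ones was Klf6, a zinc finger factor, with a log2 ratio of −1.88 in the dorsal pair. The part of handling in the other differences was not tested.

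**Figure D4:**
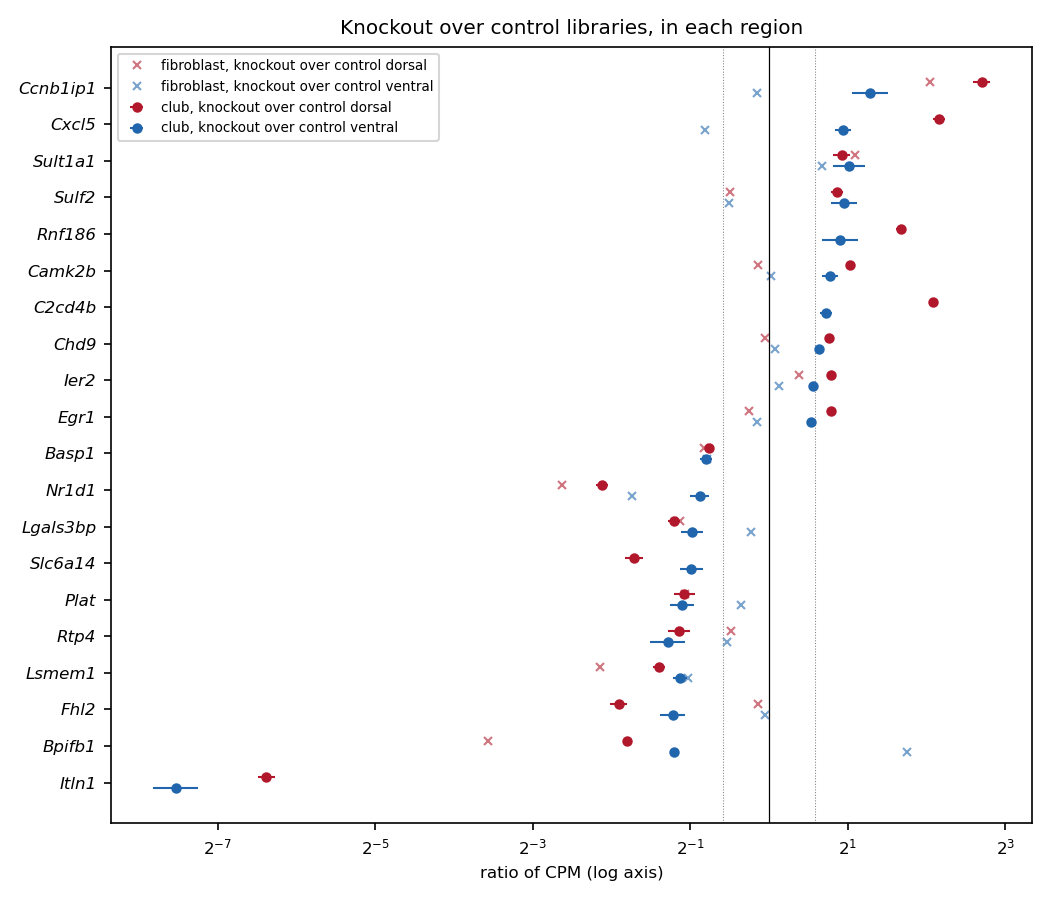
Knockout over control CPM ratio in club cells of the dorsal and ventral pairs for the named genes (log axis), with exact 95% intervals and, where fibroblasts held at least 50 UMIs in 1 library, crosses for the ratio in fibroblasts. Itln1 lies far below the rest at 0.0120 and 0.00541, and the fibroblast crosses of Nr1d1, Basp1 and Sult1a1 lie on the same side as club cells.

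Gene groups were read against the shares of all genes past the fold downwards, 13.5% in the dorsal and 1.93% in the ventral pair. Of 18 interferon response genes tested in the dorsal pair 6 (33.3%) were past the fold downwards and 0 upwards, with a median log2 ratio of −0.49 in club cells and −0.35 in fibroblasts. In the ventral pair 9 of 19 (47.4%) were lower and 0 higher, with −0.55 in club cells and −0.06 in fibroblasts. Isg15, a ubiquitin-like modifier, had 23.3 and 17.4 CPM in knockout dorsal and ventral club cells, against 32.6 and 42.1 CPM in the controls, and the interferon regulator Irf7 had 28.4 and 18.02 CPM, against 39.0 and 36.9 CPM. Beta-2 microglobulin (B2m), of class I antigen presentation, gave ratios of 0.571 and 0.682. Mucus and goblet genes had 5 of 12 lower in the dorsal pair and 4 of 14 in the ventral pair, with none higher and medians of −0.42 and −0.28, although Muc5b itself had 499 and 674 CPM in the knockouts, against 630 and 566 CPM in the controls.

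Genes of adherens junctions, desmosomes and tight junctions, where β-catenin binds E-cadherin, had 15 of 30 lower in the dorsal pair and 0 of 30 in the ventral pair, with none higher. Medians were −0.58 and −0.07 in club cells, −0.43 and −0.02 in fibroblasts and −0.77 and −0.18 in basal cells, so the dorsal medians lay below 0 in all 3 classes. The ventral median in club cells was 0.12 after thinning. E-cadherin (Cdh1) had 131 and 267 CPM in knockout dorsal and ventral club cells, against 257 and 314 CPM in the controls. Claudin 4 (Cldn4) had 218 and 447 CPM, against 788 and 564 CPM. Clock genes had 4 of 10 lower dorsally (median −0.50, against −0.67 in fibroblasts) and 1 lower and 1 higher of 11 ventrally. Wnt and β-catenin targets had 1 of 10 (10%) lower in each pair and none higher. That share was below the 13.5% of all genes dorsally and above their 1.93% ventrally, and rests on 1 gene. Medians were −0.37 and −0.16 in club cells (0.02 in the ventral pair after thinning), −0.71 and −0.19 in fibroblasts and −0.38 and −0.08 in basal cells. All genes of club cells had −0.18 and −0.08. Notch pathway genes had 1 higher and 2 lower of 10 dorsally and 1 higher of 11 ventrally. Ribosomal protein genes had a median log2 ratio of 0.15 dorsally in club cells, against 0.42 in fibroblasts, and of −0.21 ventrally, against 0.04 in fibroblasts.

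Host defence genes ran both ways in the dorsal pair, with 3 higher and 3 lower of 17, and had 7 higher and 2 lower of 21 in the ventral pair, with a median of 0.41. Hp and the complement factor Cfb each gave ratios of 1.39 and 1.54, and Lyz2 gave 1.28 and 1.86. Xenobiotic metabolism genes had 1 higher and 5 lower of 36 dorsally and 2 higher and 1 lower of 42 ventrally. Their lower shares of 13.9 and 2.38% were close to those of all genes. Glucocorticoid-responsive genes had 5 higher and 3 lower of 20 dorsally, and 2 higher and 0 lower of 22 ventrally, with medians of −0.05 and −0.08. Of all genes 2.46 and 0.966% were past the fold upwards. Fkbp5, a glucocorticoid-induced chaperone below the minimum of 20 CPM in club cells, had 9.71 and 10.6 CPM in knockout club cells, against 4.86 and 5.09 CPM in the controls. Fibroblasts had 55.7 and 107 CPM of Fkbp5 in the knockouts, against 30.3 and 56.5 CPM in the controls. Over 4168 genes measured in both pairs, 8 were past the fold upwards in both and 37 downwards in both.

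Dorsal club cells were set against ventral club cells within each genotype. Of 4360 genes in the knockouts 110 were higher (2.52%) and 545 lower (12.5%) in dorsal cells, and of 4551 in the controls 165 were higher (3.63%) and 240 lower (5.27%). TMM scaling gave 202 higher and 356 lower in the knockouts and 240 higher and 173 lower in the controls. The median log2 ratio of all genes was −0.09 and 0.02. Over 4236 genes in both pairs, which share no library, 63 were higher in dorsal cells of both genotypes and 118 lower.

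Porcn, the acyltransferase that lipid-modifies Wnt proteins for secretion, had 214 and 260 CPM in knockout and control dorsal club cells, against 55.0 and 66.3 CPM in knockout and control ventral ones. Its ratios were 3.89 (95% interval 3.63 to 4.17) and 3.92 (3.71 to 4.14) in club cells, 7.24 and 10.1 in basal cells, and 0.739 and 1.15 in fibroblasts. Prostaglandin synthase 2 (Ptgs2) had 113 and 106 CPM in dorsal cells, against 37.7 and 33.3 CPM in ventral cells, the lipoxygenase Alox15 had 98.0 and 124 CPM, against 34.3 and 43.5 CPM, and Alox12e had 37.2 and 20.9 CPM, against 8.13 and 6.38 CPM, although 5 cells held 60.8% and 47.0% of the ventral Alox12e UMIs. The carboxylesterase Ces1f had 120 and 186 CPM, against 33.5 and 52.3 CPM, and the receptor phosphatase Ptprz1 had 103 and 81.7 CPM, against 19.3 and 16.9 CPM. In each of these genes both dorsal libraries lay above both ventral ones. F5, coagulation factor V, gave ratios of 3.59 and 2.81, Calml3 gave 2.59 and 2.60 and Ms4a8a gave 3.22 and 4.07. The calcium-binding S100g gave 7.11 and 5.58, but 5 cells held 85.7% of its UMIs in the knockout ventral and 71.2% in the control ventral library.

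Lower in dorsal club cells were the developmental regulators Isl1, at 5.92 and 6.85 CPM in knockout and control dorsal cells, against 25.6 and 24.8 CPM in ventral ones, and Eya4, at 4.88 and 10.2 CPM, against 38.0 and 39.3 CPM. Clca1, a protease secreted with mucus, had 1.96 and 12.3 CPM, against 24.5 and 52.3 CPM, and 5 cells held 62.2% of its UMIs in the knockout ventral library. Transferrin (Trf) had 54.9 and 94.7 CPM, against 208 and 254 CPM, and the adhesion protein Cadm1 had 8.45 and 13.6 CPM, against 36.2 and 40.9 CPM. In Isl1, Eya4, Trf and Cadm1 both dorsal libraries lay below both ventral ones. Fibroblasts of the same libraries also had less dorsal Isl1, at 0.342 and 0.355 CPM, against 13.2 and 13.4 CPM ventrally, and less dorsal Eya4, at 20.3 and 27.3 CPM, against 59.6 and 58.6 CPM. The part of free RNA in these 2 genes was not tested. Sult1c1, Serpinb11, Banf2, Fbxl7 and Plat had ratios of 0.210 to 0.379 in the 2 genotypes. Among the secreted proteins, the Ltf ratios were 2.23 and 3.11 and those of the mucosal chemokine Cxcl17 were 2.10 and 1.95, whereas Reg3g gave 0.396 and 0.496, Sftpa1 0.172 and 0.415, and mesothelin (Msln) 0.415 and 0.611.

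**Figure D5:**
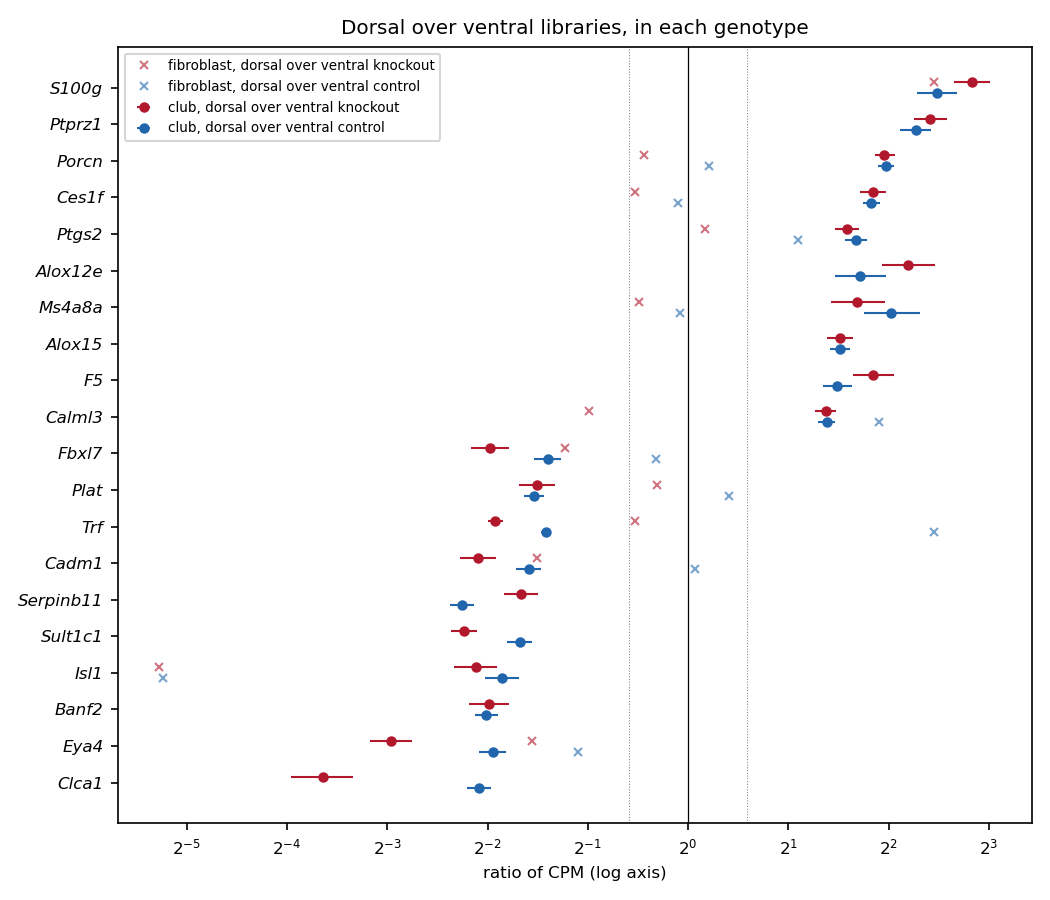
Dorsal over ventral CPM ratio in club cells of knockout and control libraries for the named genes (log axis), with exact 95% intervals and, where fibroblasts held at least 50 UMIs in 1 library, crosses for the ratio in fibroblasts. Porcn lies at 3.89 and 3.92 in both genotypes, and Isl1, at 0.231 and 0.277, lies among the lowest.

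Gland genes had 6 lower and 1 higher of 7 in the knockouts and 7 lower and 1 higher of 8 in the controls, with medians of −3.65 and −1.99 in club cells and −10.5 and −8.28 in fibroblasts. Fibroblasts should not express them, so the free RNA of each library moved with this difference, and Dcpp2, Dcpp3, Lyz1, Lipf and Sbpl were not ranked for that reason. Hillock and squamous genes had 4 higher and 2 lower of 8 in the knockouts (median 0.60) and 7 higher and 0 lower of 10 in the controls (median 0.78). Upk3bl, Ecm1 and Tppp3, whose club level was under 10% of that of another class, were not ranked. Host defence genes had 2 higher and 8 lower of 19 in the knockouts and 4 higher and 8 lower of 19 in the controls. Xenobiotic metabolism genes had 2 higher and 11 lower of 41 in the knockouts and 5 higher and 3 lower of 40 in the controls. Genes induced by tissue handling had 1 higher and 12 lower of 27 in the knockouts and 0 higher and 8 lower of 27 in the controls (medians −0.54 and −0.43), and the part of handling in the other regional differences was not tested.

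The lineage reporter, which needs both Cre in a P63 cell and Ki67 expression, was read as eGFP. Club cells had 106, 111, 92.0 and 138 CPM, against 99.4, 123, 66.2 and 96.1 CPM in fibroblasts, which lack P63 and should not carry the label. After thinning, 36.5, 36.6, 35.2 and 38.2% of club cells had an eGFP UMI, and so did 32.0, 37.6, 24.05 and 31.04% of fibroblasts. On this scale the club shares were at or near those of fibroblasts in the dorsal libraries and above them ventrally. The secreted genes of the selection took a median of 40.4 and 35.8% of UMIs in knockout and control dorsal club cells. Median depth there was 51841 and 39686 UMIs, against 10856 and 9185 UMIs in dorsal fibroblasts. Shares of all UMIs therefore cannot decide whether dorsal club cells carry the label above free RNA, which was not tested. Basal cells had 356, 675, 249 and 611 CPM.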

How the data were processed

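The 4 libraries of mouse trachea, 1 for each genotype and region, were analysed as matrices of counts. The authors deposited unnormalised UMI counts per gene and barcode made with Cell Ranger 10.0.0 on GRCm39, per the submitters' processing notes. Nothing in the labels states further filtering. The matrices hold 39524 barcodes, and 31167 passed the limits of 500 genes, 15% mitochondrial counts and 5000 UMIs. Group names come from the labels, and the 4 libraries are single samples, so replicate error between mice is unknown.

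Classes were assigned cell by cell from marker counts, with no clustering. The selection, the gene lists and the tests were chosen with earlier results of these data known, and no count over a list is independent support for it. Counts were summed per library and class. Ratios between libraries used exact conditional binomial intervals (scipy 1.17.1), with 20 CPM and 50 UMIs as the minimum. Club and mucous-type sums were compared with edgeR 4.0.16 in R 4.3.3 (TMM, quasi-likelihood, Benjamini-Hochberg over all genes tested, library as block), checked on simulated counts. Both classes of a library come from the same cell suspension, which is what pairs them. Doublets were called with Scrublet in scanpy 1.11.5. DESeq2 1.42.0, other scalings, thinning to 5000 UMIs and leaving out libraries were alternatives.

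Genes named from club against mucous-type cells were the 12 highest and 12 lowest fold changes among those at an adjusted p under 0.05, on the same side in all 4 libraries after 0.5 UMI was added to each sum, and with 20 CPM in 1 class. For genes at or near 0 in the dorsal classes, such as Dcpp3 and Tff1, the dorsal side came from that addition and carries no direction. For libraries they were the 10 highest and 10 lowest by the interval bound nearest to 1 over both pairs. Genes below 10% of their level in another class were set aside as possible free RNA. Other genes named are members of the lists. Promoter windows were found in RefSeq for 50 of 67 genes looked up.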

Additional observations from a re-analysis of the deposited data

Results flagged for a closer look

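The values here had opposite directions in 2 pairs of libraries, and no difference between pairs was tested. In knockout over control club cells, the ratio of Areg was 0.523 in the dorsal and 1.52 in the ventral pair. In the ventral pair 5 cells held 43.6% of its UMIs in the knockout and 24.7% in the control library, and after thinning 13.4% of knockout and 12.6% of control cells had an Areg UMI, against at most 0.847% of fibroblasts. The ratio of Cd74, the invariant chain of class II antigen presentation, was 2.81 in the dorsal and 0.433 in the ventral pair of knockout over control, and 1.82 in the knockouts and 0.281 in the controls for dorsal over ventral. In each library 5 club cells held at least 86.8% of its UMIs. The median log2 ratio of ribosomal protein genes was 0.146 dorsally and −0.213 ventrally for knockout over control, and 0.161 in the knockouts and −0.183 in the controls for dorsal over ventral.

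For dorsal over ventral club cells, the median log2 ratio in knockouts and controls was −0.157 and 0.158 for Wnt and β-catenin targets, −0.422 and 0.216 for junction genes, and −0.312 and 0.294 for clock genes. Among single genes, the ratio in knockouts and controls was 0.199 and 1.51 for Nrg1 (ENSMUSG00000062991), 1.66 and 0.627 for the transcription regulator Id1, 0.640 and 1.53 for the keratin Krt23, and 0.639 and 1.51 for Nr1d1. These comparisons share libraries with those of knockout over control.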

How the results depend on the processing

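Of the 80 named ratios between libraries, none that was past the 1.5-fold limit changed direction under the alternatives that were run. Smaller ratios were not checked for direction. Of 400 recomputed ratios 119 lay outside the counting interval of the main ratio. No gene named from club against mucous-type cells changed direction where it was tested. With no replicate block 2 of these 24 genes had an edgeR adjusted p under 0.05. Of 355 list medians recomputed under alternatives, 34 took the other sign; the largest of these was −0.25 for basal identity genes in knockout over control ventral, which became 0.16 after thinning. For club against mucous-type cells, 346 higher and 306 lower genes became 682 and 739 with no filter on low counts, and 2 and 3 with no replicate block. Requiring Scgb1a1 at 2 times Scgb3a1 gave 489 lower. The ventral libraries alone, an alternative chosen after seeing the data, gave 1067 higher and 1289 lower. Leaving out 1 library each gave 119 to 432 higher and 61 to 506 lower. Counts stayed within 1.5 times with DESeq2 (379 and 308), without doublets (385 and 372) and with thinning (251 and 217). The genes behind them changed more. Of the 652 genes called, 558 were also called with DESeq2 and 636 without doublets. With thinning 270 were, where 9301 genes and 17 of the 24 named genes could be tested.

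With club cells defined by Scgb1a1 at 2 times Scgb3a1, their share of epithelial cells was 28.0, 26.0, 6.62 and 6.71% in the knockout dorsal, control dorsal, knockout ventral and control ventral libraries, and their share of secretory cells was 92.5, 93.4, 23.3 and 29.5%. The control dorsal epithelial share was 25.2% at a secreted share of 10% and 28.4% at 10000 UMIs.

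Counts of genes past the fold moved most with the minimum and the fold. For knockout over control, the dorsal counts were 42 higher and 151 lower at a fold of 2 and 1924 and 3123 at a minimum of 10 UMIs, with 200 higher when the secreted genes were left out of the scaling. The ventral counts were 8 and 31 at a fold of 2, 808 and 1787 at 10 UMIs, 112 and 166 after thinning, and 90 higher without the secreted genes. For dorsal over ventral in the knockouts, they were 49 and 150 at a fold of 2, 1704 and 2766 at 10 UMIs, 202 and 356 with TMM, 199 higher after thinning and 188 higher without the secreted genes. In the controls they were 55 and 89 at a fold of 2, 1503 and 3033 at 10 UMIs, and 436 higher after thinning. Another scaling moved the median log2 ratio of all genes by 0.112 for knockout over control dorsal (without the secreted genes), and by 0.142 and 0.109 for dorsal over ventral in knockouts and controls (TMM). Depth limits the dorsal mucous-type sums most, which hold 19 and 49 cells.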

Other observations

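Of the proliferation genes only 1 reached the minimum level in club cells, and it was not past the fold in either pair. Below that minimum, the proliferation marker Mki67 had 24 and 5 UMIs in knockout dorsal and ventral club cells, against 373 and 122 UMIs in the controls, which is 0.428 and 0.313 CPM, against 3.72 and 5.81 CPM. The topoisomerase Top2a had 0.784 and 0.188 CPM in the knockouts, against 6.498 and 6.997 CPM in the controls. The control counts came from few cells, since 5 cells held 45.6% of the Mki67 UMIs in the control dorsal and 91.0% in the control ventral library.

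The chemokine gene Ccl20 had 110 CPM in knockout ventral club cells, against 5.38 CPM in control ventral ones, but 5 cells held 97.2% of those UMIs. The endothelial and leukocyte adhesion gene Pecam1 had 42.4 and 43.4 CPM in knockout dorsal and ventral club cells, against 11.2 and 47.1 CPM in the controls.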
